A study of Homo sapiens with 24 samples.

Results

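The major histocompatibility complex (MHC) class II genes HLA-DRA, HLA-DPA1, HLA-DPB1, HLA-DQA1, HLA-DQB1, HLA-DMA, HLA-DMB and HLA-DOA, together with CD74 and CIITA, were followed in a Burkitt lymphoma cell line after induction of the microRNA miR-28. These are 10 of the 19775 genes that were the only symbol of a probe set in the platform annotation, and all their probe sets were taken, 30 of the 54675 on the array. Of these 30, 23 were brighter on average than the median non-control probe set and entered the tests, and 7 dimmer ones were described only. A further 4 probe sets carried a listed symbol together with those of other class II genes and are given apart. The rule that picks the probe sets uses no measured value.

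Expression was measured on 24 Affymetrix arrays of P3HR1, an established Burkitt lymphoma line, in 4 groups of 6 arrays. These were miR-28 cells and control cells after 12 h of doxycycline, and miR-28 cells and control cells after 24 h. Both genotypes carried the doxycycline-inducible pRTS1 vector, which made green fluorescent protein together with the miR-28 precursor in miR-28 cells and green fluorescent protein alone in control cells. Each genotype was represented by bulk populations A and B, with 3 inductions of each at each time, so each group held 2 populations and not 6 independently made ones, and p-values measure mostly the spread between inductions and arrays. The dose of doxycycline is given as 0.1 ug/ml in the treatment label and as 1 ug/ml in the source label of every group. All arrays came from induced cells, so an effect of miR-28 and a difference between the populations from before induction cannot be told apart.

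MHC class II molecules present peptides from endocytosed proteins to CD4+ helper T cells and are a defining feature of B cells and other professional antigen-presenting cells. An alpha and a beta chain (HLA-DR, HLA-DP or HLA-DQ) assemble with the invariant chain CD74, which blocks the peptide groove until endosomal proteases cut it. HLA-DM, a dimer of HLA-DMA and HLA-DMB, then exchanges the remaining CD74 fragment for peptide, and HLA-DO, whose alpha chain is HLA-DOA, inhibits HLA-DM in B cells. CIITA is the coactivator that switches these genes on without binding DNA itself, through factors bound to the X and Y boxes of their promoters.

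Promoter sequence from RefSeq (GRCh38.p14, 250 bases before to 50 after the start site) matched 8 of the 10 genes (all but HLA-DRA and CIITA), in 9 windows because HLA-DPA1 has 2. Sequences are shown for the 3 genes with a probe set that passed the test between genotypes (HLA-DOA, HLA-DQB1 and HLA-DQA1), and for HLA-DMA and CD74, which had none, since CIITA acts through such promoters. Capitals mark ATTGG, the core of the Y box, and TGACG, found in forms of the X2 box, each on either strand (CCAAT and CGTCA on the other).
HLA-DOA: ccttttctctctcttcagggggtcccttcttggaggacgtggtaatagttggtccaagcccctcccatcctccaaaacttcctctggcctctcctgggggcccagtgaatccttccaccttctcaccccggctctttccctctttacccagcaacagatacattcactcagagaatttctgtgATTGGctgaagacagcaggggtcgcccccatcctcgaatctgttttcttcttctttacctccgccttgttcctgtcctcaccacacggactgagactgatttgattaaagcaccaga
HLA-DQB1: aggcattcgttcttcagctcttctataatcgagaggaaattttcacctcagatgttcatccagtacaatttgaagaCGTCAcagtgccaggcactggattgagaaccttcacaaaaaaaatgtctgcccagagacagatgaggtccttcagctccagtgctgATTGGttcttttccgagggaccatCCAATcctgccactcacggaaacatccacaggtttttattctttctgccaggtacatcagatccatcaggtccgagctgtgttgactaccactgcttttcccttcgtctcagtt
HLA-DQA1: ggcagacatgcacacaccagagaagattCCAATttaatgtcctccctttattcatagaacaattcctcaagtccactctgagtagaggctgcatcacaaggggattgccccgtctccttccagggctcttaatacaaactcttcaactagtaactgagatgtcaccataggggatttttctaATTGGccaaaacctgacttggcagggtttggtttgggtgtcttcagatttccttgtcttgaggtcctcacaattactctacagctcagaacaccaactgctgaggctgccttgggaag
HLA-DMA: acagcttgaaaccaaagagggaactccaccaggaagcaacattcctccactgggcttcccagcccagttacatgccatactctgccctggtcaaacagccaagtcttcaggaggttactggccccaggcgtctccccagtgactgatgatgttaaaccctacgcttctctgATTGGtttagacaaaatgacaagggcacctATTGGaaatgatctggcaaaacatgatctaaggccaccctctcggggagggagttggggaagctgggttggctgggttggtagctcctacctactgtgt
CD74: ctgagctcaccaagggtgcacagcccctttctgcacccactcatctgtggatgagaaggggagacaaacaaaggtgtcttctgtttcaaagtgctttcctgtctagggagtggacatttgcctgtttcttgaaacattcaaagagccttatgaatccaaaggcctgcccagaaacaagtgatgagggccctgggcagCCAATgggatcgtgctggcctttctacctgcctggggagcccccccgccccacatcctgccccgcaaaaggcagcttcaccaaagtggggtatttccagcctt
The windows lie at chr6:33009542-33009841 (minus strand), chr6:32666608-32666907 (minus strand), chr6:32637156-32637455 (plus strand), chr6:32953048-32953347 (minus strand) and chr5:150412861-150413160 (minus strand). ATTGG stood in 7 of the 9 member windows and in 34.6% of all 35116 promoters of the same length, and TGACG in 5 of 9 and in 24.6% of all. ATTGG began 67 bases before the start site of HLA-DOA, 88 bases before that of HLA-DQB1 and 68 bases before that of HLA-DQA1, with a second copy on the other strand in HLA-DQB1 (64) and HLA-DQA1 (222). In HLA-DMA copies began 79 and 49 bases before the start site, and in CD74 1 copy began 53 bases before it. TGACG stood in the HLA-DQB1 window of those shown and in none of the others, which says nothing about the factors that bind there.

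The precursor carried by the miR-28 vector gives rise to miR-28-5p and miR-28-3p. The mature RefSeq sequence of hsa-miR-28-3p, at chr3:188688834-188688855 on the plus strand, is shown with its seed (bases 2 to 8) in capitals. No sequence of miR-28-5p was available here, and no difference between the genotypes was assigned to either product.
hsa-miR-28-3p: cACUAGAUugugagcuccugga
Target sites in the class II transcripts were not searched.

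The marker lists were checked by the median intensity of their probe sets, which hybridise with unequal strength. The 8 measured B-cell markers were all above the filter, with a median deposited intensity of 8457, against 53.8 for T-cell, 35.7 for NK-cell, 48.0 for monocyte and dendritic-cell and 92.4 for fibroblast and epithelial markers. The 5 plasma-cell markers had a median of 1890, with CD27 at 4074, XBP1 at 3639 and TNFRSF17 at 1890. PRDM1 had 162.3, and SDC1 had 59.5, below the filter. Monocytes and dendritic cells are the other cells known for class II. Summed over their 10 markers, the intensity at 24 h ran from 565.4 to 975.1 in miR-28 and from 628 to 929.1 in control cells. Of these markers CD1C was the highest, at 334.3 on average, and CD14 averaged 19.1. Above the filter and so tested were 1 of 7 T-cell, 1 of 5 NK-cell and 2 of 10 monocyte and dendritic-cell markers. So were 4 of 5 plasma-cell and 4 of 8 fibroblast and epithelial markers. None of these passed between genotypes at either time, and those below the filter were not tested. Of the B-cell markers BANK1, a B-cell scaffold protein, was higher in miR-28 cells at 24 h (log2 difference 0.36, limma adjusted p 0.0051). The deposited intensities are linear and share a common trimmed mean. The log ratio between the 3' and 5' control probe sets of ACTB, a sign of RNA quality, was highest on control array B2 at 24 h (1.59, log2) and miR-28 array B2 at 12 h (1.05), where B2 stands for population B, induction 2, and between 0.27 and 0.87 on the others.

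All 10 genes had at least 1 probe set above the filter; intensities of different probe sets are given as a description and were not tested against each other. The main CD74 probe set averaged 33536 over the 24 arrays, the brightest HLA-DPA1 probe set 31420 and the brightest HLA-DRA probe set 26860. The brightest probe sets of HLA-DQA1, HLA-DMB, HLA-DQB1, HLA-DMA and HLA-DPB1 averaged between 2885 and 7973, and that of HLA-DOA averaged 1151. The brightest of CIITA averaged 350.6, and its other 2 probe sets lay below the filter. The 7 probe sets below the filter (1 of HLA-DQA1, 1 of HLA-DQB1, 2 of HLA-DOA, 1 of CD74 and 2 of CIITA) averaged 18.2 to 69.7.

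**Figure D1:**
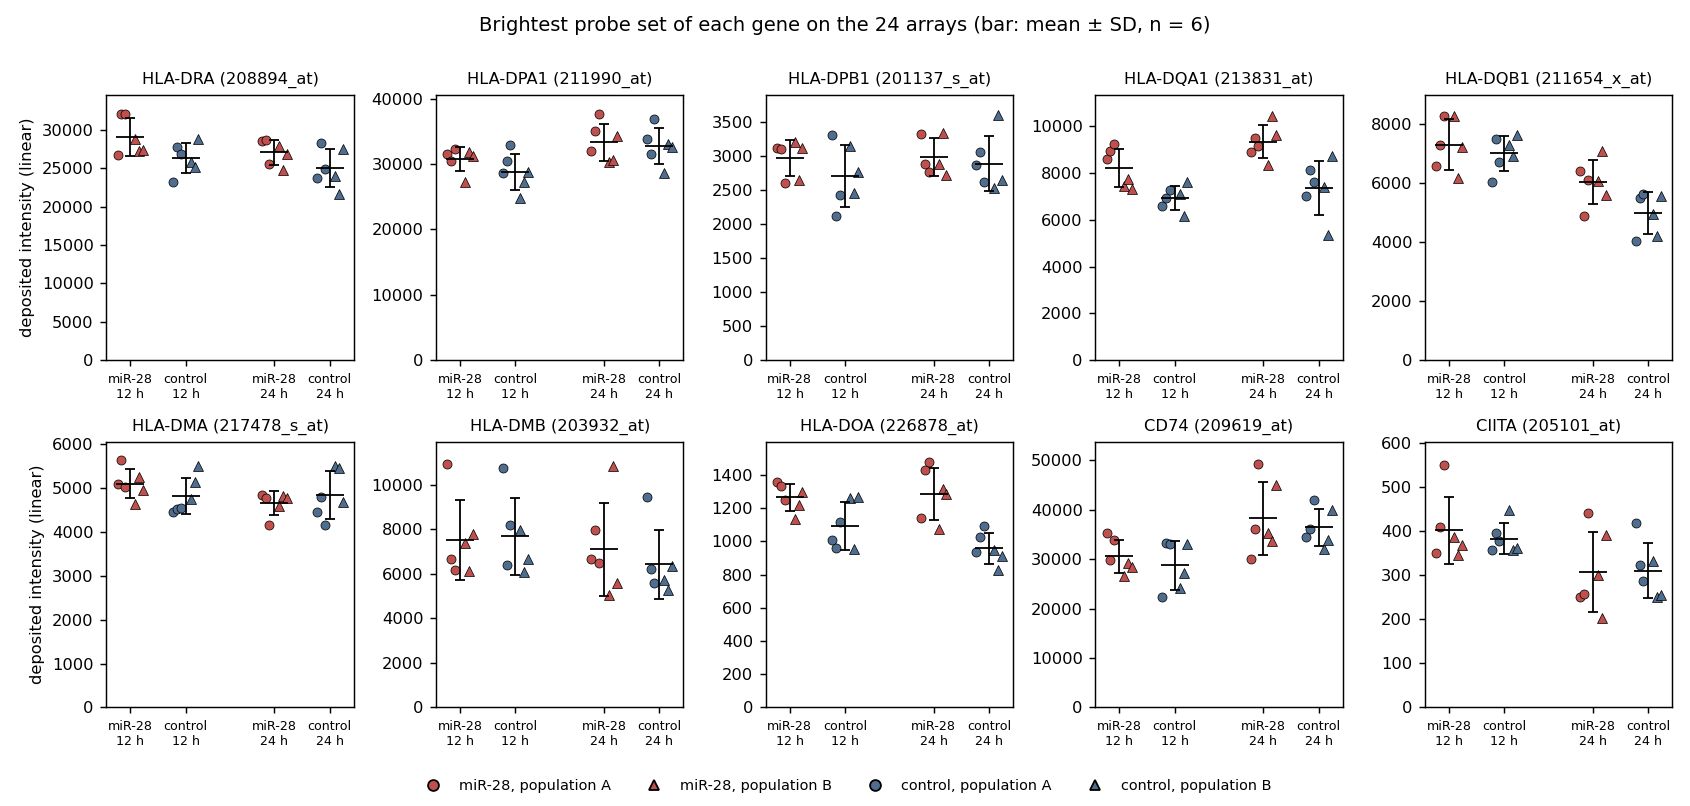
Deposited linear intensity of the brightest probe set of each of the 10 genes on every array, with miR-28 cells in red left of control cells in blue at 12 h and at 24 h, circles for population A, triangles for population B, and bars for the mean ± SD of 6 arrays. HLA-DOA at 24 h averaged 1288 in miR-28 and 957.5 in control cells, while the groups of CD74, HLA-DMA, HLA-DMB and CIITA overlapped widely.

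Whether class II transcripts differed early after induction was asked with the 12 h arrays of miR-28 and control cells. None of the 23 probe sets passed (limma, Benjamini-Hochberg adjusted p under 0.05 over all 27306 probe sets tested), where 0.165% of all passed (0.0439% higher and 0.121% lower), and 4 of 23 had an unadjusted p under 0.05, as had 8.02% of all. The log2 difference was above 0 for 21 probe sets and below 0 for 2, with a median of 0.13, against a median of 0.0029 over all probe sets, 50.7% of which were above 0. These probe sets share genes and arrays, so the 21 are not independent. HLA-DQA1 213831_at, the alpha chain of HLA-DQ, ran from 7322 to 9235 (median 8191) in miR-28 cells and from 6170 to 7637 (median 7014) in control cells, a log2 difference of 0.24 ± 0.10 (SE; limma adjusted p 0.51). The lowest miR-28 arrays lay among the control arrays. The most negative value was that of the dim HLA-DPB1 probe set 244485_at, at 97.8 ± 59.0 in miR-28 and 161.8 ± 41.6 in control cells (SD, n = 6), with a log2 difference of -0.85 ± 0.28 (limma adjusted p 0.34), while the brighter HLA-DPB1 probe set gave 0.15 ± 0.11. The others with an unadjusted p under 0.05 were HLA-DQB1 212998_x_at, at 7294 ± 543.2 in miR-28 and 6460 ± 466.8 in control cells (0.17 ± 0.07, limma adjusted p 0.54), and HLA-DOA 226878_at.

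HLA-DR, HLA-DP, CD74, HLA-DM and CIITA had no call at 12 h. HLA-DRA 208894_at ran from 26710 to 32137 (median 28063) in miR-28 cells and from 23260 to 28866 (median 26341) in control cells (0.14 ± 0.08, limma adjusted p 0.68). HLA-DPA1 211990_at ran from 27257 to 32310 (median 31418) in miR-28 cells and from 24760 to 32878 (median 28658) in control cells (0.10 ± 0.08). CD74 209619_at ran from 26674 to 35230 (median 29595) in miR-28 cells and from 22297 to 33236 (median 30096) in control cells (0.10 ± 0.12). In all 3 the groups overlapped. HLA-DMA had 5094 ± 332.7 in miR-28 and 4812 ± 417.8 in control cells (0.08 ± 0.08), and HLA-DMB 7526 ± 1801 in miR-28 and 7692 ± 1738 in control cells (-0.03 ± 0.18). CIITA 205101_at ran from 346.6 to 550.6 (median 378) in miR-28 cells and from 356.1 to 447.3 (median 369.7) in control cells, and its log2 difference was 0.06 ± 0.16 (95% interval -0.27 to 0.38; limma adjusted p 0.98).

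After 24 h 3 of the 23 probe sets were higher in miR-28 cells and none was lower, where 1.27% of all probe sets were called higher and 1.48% lower, 2.75% in either direction. They belonged to HLA-DOA, HLA-DQB1 and HLA-DQA1, with rises of 1.23-fold to 1.35-fold in mean intensity. HLA-DRA, HLA-DPA1, HLA-DPB1, HLA-DMA, HLA-DMB, CD74 and CIITA had no probe set that passed. The log2 difference was above 0 for 20 of 23 probe sets, with a median of 0.15, against 0.012 over all probe sets, 52.1% of which were above 0. As at 12 h, these probe sets share genes and arrays, so the 20 are not independent. The 5 lists of other class II presentation genes below had medians of 0.06 to 0.16. An unadjusted p under 0.05 was found for 6 of 23, as for 15.7% of all. These were the 3 that passed with HLA-DPA1 213537_at and HLA-DQB1 211654_x_at and 209823_x_at. Over all probe sets 348 were called higher and 403 lower, which became 425 and 198 after median centring of the arrays, with the same count of 3 higher and 0 lower among the members. The summed intensity of the 5 plasma-cell markers at 24 h ran from 9163 to 9952 in miR-28 cells and from 7730 to 8994 in control cells. None of the 4 plasma-cell markers above the filter was called. That of the 8 B-cell markers ran from 61692 to 69719 in miR-28 and from 58093 to 65721 in control cells. Their part in the class II values was not tested. In bulk RNA a change in the share of cells that express a gene and a change in RNA per cell cannot be told apart.

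Among the classical chains, HLA-DQ held the calls. HLA-DQB1, the beta chain, ran on 212998_x_at from 5631 to 6422 (median 5893) in miR-28 cells and from 4068 to 5444 (median 4826) in control cells at 24 h. All 6 miR-28 arrays lay above all 6 control arrays, the only member probe set of which this held in either direction, where 1.11% of all probe sets were so separated with miR-28 cells higher and 1.36% with miR-28 cells lower. Its mean was 5937 ± 278.5 in miR-28 and 4817 ± 495.7 in control cells (SD, n = 6), a log2 difference of 0.31 ± 0.07 (limma adjusted p 0.0236). The other 5 HLA-DQB1 probe sets above the filter gave log2 differences of 0.14 to 0.47, none of which passed. On the dimmest of them, 209823_x_at, intensities ran from 314 to 681.5 in miR-28 and from 255 to 465.5 in control cells. HLA-DQB1 probe sets share a gene, and those with the suffix x can bind related transcripts.

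HLA-DQA1 213831_at, the partner of HLA-DQB1, ran from 8353 to 10465 (median 9342) in miR-28 cells and from 5351 to 8721 (median 7513) in control cells at 24 h. The brightest control array lay within the miR-28 range, and the others lay below it. Its mean was 9343 ± 713.8 in miR-28 and 7377 ± 1153 in control cells, a log2 difference of 0.35 ± 0.10 (limma adjusted p 0.0493). The dimmer HLA-DQA1 probe set 236203_at, at 724.8 ± 57.7 in miR-28 and 657.8 ± 100.03 in control cells, gave 0.15 ± 0.11 and did not pass. A probe set annotated to both HLA-DQA2 and HLA-DQA1, 212671_s_at, ran from 9854 to 12474 in miR-28 and from 4924 to 9339 in control cells, with no overlap, and gave 0.47 ± 0.12 (limma adjusted p 0.041). Without the control array B2 at 24 h, which had the lowest value, it gave 0.33 (limma adjusted p 0.0511), and it was kept in 15 of 24 fits without 1 array. Which of these genes it measured cannot be told apart.

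HLA-DOA, the alpha chain of the HLA-DM inhibitor HLA-DO, had the smallest p of the members. On 226878_at it ran from 1077 to 1475 (median 1301) in miR-28 cells and from 827.1 to 1093 (median 942.7) in control cells at 24 h. The dimmest miR-28 array, B1, lay just under the brightest control array, and the other 5 lay above all control arrays. The mean was 1288 ± 156.5 in miR-28 and 957.5 ± 92.3 in control cells, a log2 difference of 0.42 ± 0.09 (95% interval 0.23 to 0.61; limma adjusted p 0.0134). At 12 h the same probe set had 1265 ± 82.7 in miR-28 and 1093 ± 144.1 in control cells (0.22 ± 0.09, limma adjusted p 0.55). The dimmer HLA-DOA probe sets 206313_at and 211142_x_at gave 0.37 ± 0.34 and 0.79 ± 0.45 at 24 h, with intervals that included 0.

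The control array with the highest ACTB ratio, B2 at 24 h, was also the lowest of its group for HLA-DOA, HLA-DQB1 212998_x_at and HLA-DQA1 213831_at. Without it the log2 difference at 24 h was 0.38 for HLA-DOA (limma adjusted p 0.0318), 0.26 for HLA-DQB1 (limma adjusted p 0.0521) and 0.26 for HLA-DQA1 (limma adjusted p 0.0881). The count of members called at 24 h was then 1 in place of 3. It was also 1 without control array A1 or A3 or miR-28 array B2 at 24 h. It was 1 in a fit of the 24 h arrays alone, 0 with the population means as the unit (2 against 2), where no probe set of the array passed, and 0 with no filter on dim probe sets. The HLA-DOA call was kept in each of the 24 fits that left out 1 array. The HLA-DQB1 call was kept in 19 and lost without control A1, A3 or B2 or miR-28 B1 or B2 at 24 h, with adjusted p of 0.0502 to 0.0637. The HLA-DQA1 call was kept in 8 of 24, those without control A3 or B2 or miR-28 A2, A3 or B1 at 12 h, or without control A2 or B3 or miR-28 B1 at 24 h. In the other 16 its adjusted p ran from 0.0502 to 0.113, and its log2 difference was above 0 in all 24.

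HLA-DR and HLA-DP, the other class II molecules on the cell surface, showed no called difference. HLA-DRA 208894_at, the nearly invariant alpha chain of HLA-DR, ran from 24816 to 28714 (median 27418) in miR-28 cells and from 21706 to 28356 (median 24387) in control cells at 24 h, and the groups overlapped. Its log2 difference was 0.12 ± 0.08 (95% interval -0.04 to 0.28; limma adjusted p 0.50), and that of the other HLA-DRA probe set 0.00 ± 0.07 (95% interval -0.15 to 0.15). The 3 HLA-DPA1 probe sets gave 0.03 to 0.19 at 24 h, the highest on 213537_at, at 3595 ± 273.7 in miR-28 and 3148 ± 271.3 in control cells (limma adjusted p 0.21). HLA-DPB1 201137_s_at had 2984 ± 279.7 in miR-28 and 2889 ± 402.6 in control cells (0.05 ± 0.11, 95% interval -0.17 to 0.27).

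The peptide exchange factor HLA-DM did not pass either. HLA-DMA ran from 4145 to 4844 (median 4776) in miR-28 cells and from 4154 to 5497 (median 4738) in control cells at 24 h, with control arrays B1 (5497) and B2 (5462) above all miR-28 arrays and the other 4 within the miR-28 range (log2 difference -0.05 ± 0.08, 95% interval -0.21 to 0.11). HLA-DMB varied widely between arrays of a group, with 7101 ± 2090 in miR-28 and 6430 ± 1539 in control cells (0.13 ± 0.18, 95% interval -0.25 to 0.50). In each of the 4 groups its highest array lay at 9466 or above, while the group medians lay between 5968 and 7329.

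CD74, the invariant chain, ran on 209619_at from 30109 to 49337 (median 35742) in miR-28 cells and from 32106 to 41927 (median 35362) in control cells at 24 h. The groups overlapped, and the log2 difference was 0.06 ± 0.12 (95% interval -0.20 to 0.31; limma adjusted p 0.88). A second CD74 probe set, 1567628_at, gave 0.15 ± 0.19. CIITA 205101_at, the only CIITA probe set above the filter, had 307 ± 91.3 in miR-28 and 310.5 ± 62.5 in control cells, a log2 difference of -0.04 ± 0.16 (95% interval -0.37 to 0.28; limma adjusted p 0.94).

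The 4 probe sets with several symbols included 3 that were annotated to HLA-DQB1 together with HLA-DRB genes. The brighter pair of these, 209312_x_at and 215193_x_at, gave -0.07 ± 0.07 and -0.10 ± 0.09 at 24 h, and the dim 221491_x_at gave -0.64 ± 0.23 (limma adjusted p 0.16), at 116.4 ± 47.3 in miR-28 and 178.4 ± 45.3 in control cells. The 95% intervals of the brighter pair at 24 h included 0 (-0.21 to 0.07 for 209312_x_at and -0.29 to 0.09 for 215193_x_at). Their signs are therefore not settled, and which of the annotated genes they measured cannot be told apart. At 12 h the same 3 gave log2 differences of 0.04 (209312_x_at), 0.12 (215193_x_at) and 0.22 (221491_x_at), and none of them passed at either time.

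**Figure D2:**
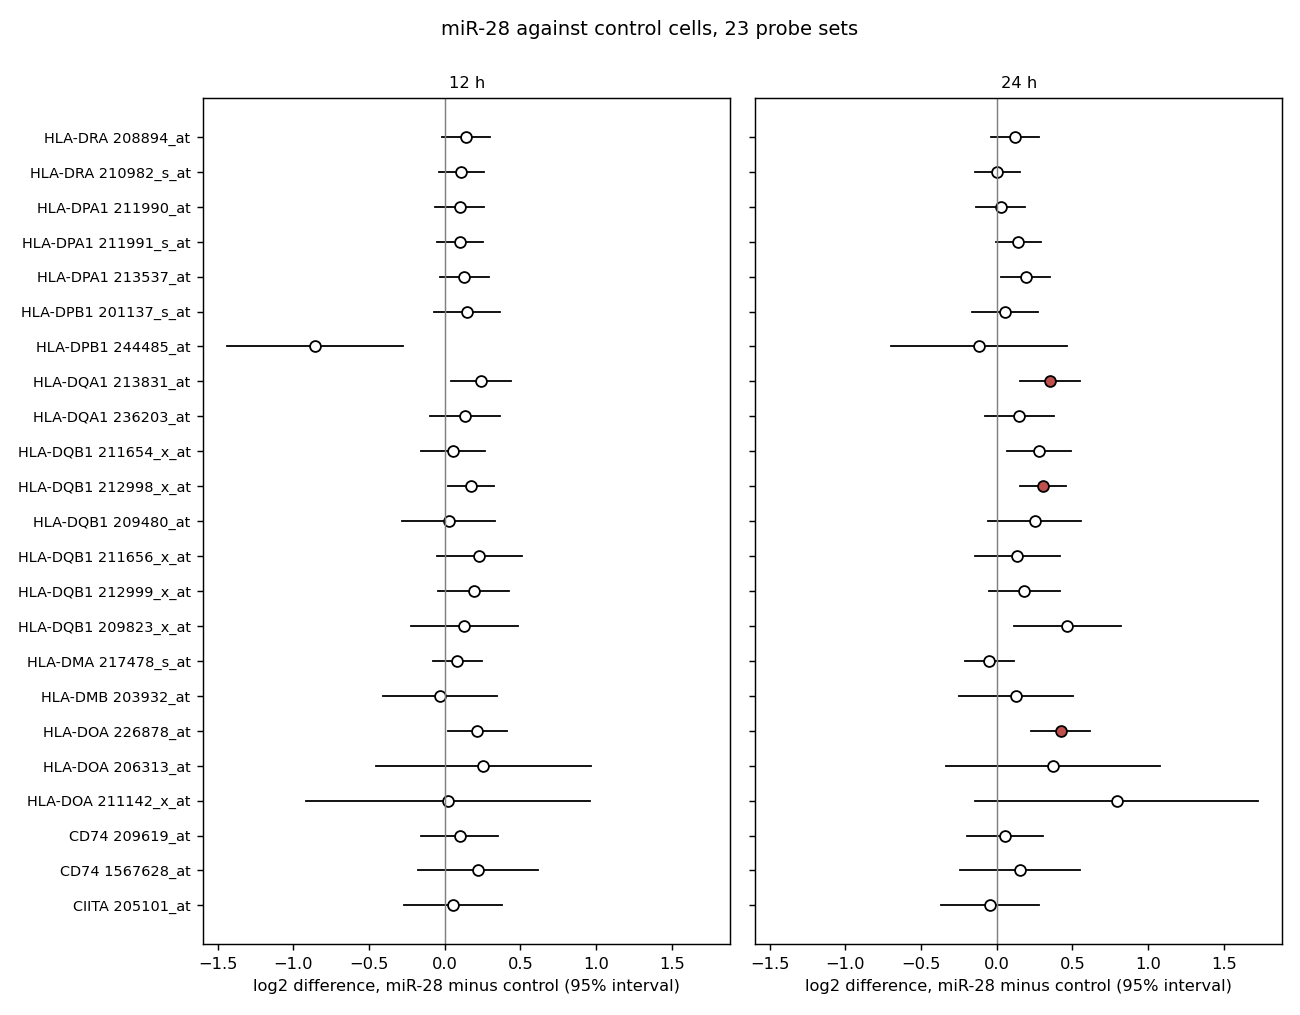
Log2 difference, miR-28 minus control, at 12 h (left) and 24 h (right) for the 23 probe sets, with 95% intervals from limma and red points where the adjusted p was under 0.05. The 3 red points at 24 h are HLA-DQA1 213831_at, HLA-DQB1 212998_x_at and HLA-DOA 226878_at, at 0.31 to 0.42, and no point at 12 h is red.

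Whether the effect of miR-28 grew between the times was tested as an interaction, and none of the 23 probe sets nor any other passed (0% of all; 0 of 23 and 1588 of all 27306 had an unadjusted p under 0.05, limma). For HLA-DOA 226878_at the effect at 24 h minus that at 12 h was 0.20 ± 0.14, for HLA-DQB1 212998_x_at 0.13 ± 0.11 and for HLA-DQA1 213831_at 0.11 ± 0.14. A call at 24 h and none at 12 h therefore does not show that the effect differed between the times.

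Populations A and B were compared within and between genotypes, since the letters are not known to pair miR-28 with control populations. Fits of the arrays of 1 letter alone set 1 miR-28 population against 1 control population. At 24 h they gave log2 differences of 0.40 (A) and 0.45 (B) for HLA-DOA 226878_at. For HLA-DQB1 212998_x_at these were 0.30 and 0.31, and for HLA-DQA1 213831_at 0.28 and 0.43. None of them passed with 3 arrays a group. No member passed for the miR-28 effect with letter B minus that with letter A (0% of all, limma; 2 of 23 and 5.76% of all with an unadjusted p under 0.05), for population B minus A in miR-28 cells (0% of all; 0 of 23 and 4.8% of all unadjusted) or for B minus A in control cells (0.00366% of all; 4 of 23 and 7.42% of all unadjusted). HLA-DOA 226878_at averaged 1350 and 1226 in miR-28 populations A and B at 24 h, both above the 1020 and 895.4 of control populations A and B. For HLA-DQB1 212998_x_at these means were 5839 and 6034 in miR-28 and 4734 and 4900 in control populations. For HLA-DQA1 213831_at they were 9203 and 9482 in miR-28 and 7597 and 7157 in control populations. The pair with an unadjusted p under 0.05 for the difference of effects between letters were the dim HLA-DOA probe set 211142_x_at (1.57 ± 0.57, limma adjusted p 0.72) and HLA-DMA (-0.22 ± 0.10, limma adjusted p 0.85). For HLA-DMA population B minus A was -0.02 ± 0.07 in miR-28 and 0.20 ± 0.07 in control cells (limma adjusted p 0.50 for the control cells).

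The change with time was compared within each genotype, 24 h against 12 h. The probe sets that passed were all of HLA-DQB1 and all fell. In miR-28 cells 4 of 23 member probe sets were lower and none was higher, where 0.901% of all were called lower, 0.981% higher and 1.88% in either direction. In control cells 5 of 23 were lower and none was higher, where 1.5% of all were called lower, 1.59% higher and 3.09% in either direction. The median log2 difference over members was -0.10 in miR-28 and -0.19 in control cells, against -0.021 and -0.031 over all probe sets. The 24 h control arrays serve both here and in the comparison of genotypes at 24 h, so those results share samples.

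In miR-28 cells HLA-DQB1 209480_at had 1925 ± 274 at 24 h and 2946 ± 350.4 at 12 h, and every 24 h array (1590 to 2239) lay below every 12 h array (2303 to 3255). In miR-28 cells 2 of 23 members were so separated with 24 h lower, where 1.25% of all probe sets were, and 1 with 24 h higher (1.32% of all). In control cells these were 3 (1.3% of all) and 0 (1.51% of all). The log2 difference was -0.62 ± 0.15 (limma adjusted p 0.0381). In control cells the same probe set had 1617 ± 231.6 at 24 h and 2962 ± 769.2 at 12 h, a log2 difference of -0.84 ± 0.15 (limma adjusted p 0.0031). The control ranges, 1366 to 1886 at 24 h and 1878 to 4064 at 12 h, overlapped slightly. This probe set fell in both genotypes.

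HLA-DQB1 212998_x_at, the probe set that was higher in miR-28 cells at 24 h, fell in both genotypes, by 0.29 on the log2 scale in miR-28 cells (limma adjusted p 0.0485) and by 0.43 in control cells (limma adjusted p 0.0029). HLA-DQB1 212999_x_at also fell in both, by 0.46 in miR-28 and by 0.45 in control cells. HLA-DQB1 211656_x_at fell in miR-28 cells by 0.55 (limma adjusted p 0.0462) and had -0.46 ± 0.14 in control cells without passing. HLA-DQB1 211654_x_at and 209823_x_at fell in control cells by 0.50 and by 0.79, and had -0.28 ± 0.11 and -0.45 ± 0.18 in miR-28 cells without passing. With median centring the counts of members called were 0 in miR-28 and 4 in control cells, with all calls at 529 higher and 66 lower in place of 268 and 246 in miR-28 cells, and at 297 and 177 in place of 433 and 410 in control cells. The calls in miR-28 cells depended on single arrays: their count was 1 without both arrays of high ACTB ratio, 0 without miR-28 A1, A2, B2 or B3 at 12 h or miR-28 A2 or B3 at 24 h, 2 without control A1 or B3 at 24 h, and 1 without miR-28 A3 or control A2, B1 or B2 at 12 h, or without miR-28 A1, A3 or B2 or control A2 or A3 at 24 h. In control cells the count was 4 or 5 without any 1 array.

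No other member had a call with time, the alpha chain that pairs with HLA-DQB1 included. HLA-DQA1 213831_at had 9343 ± 713.8 at 24 h and 8225 ± 812.9 at 12 h in miR-28 cells (0.19 ± 0.10), and 7377 ± 1153 at 24 h and 6949 ± 517.3 at 12 h in control cells (0.07 ± 0.10), neither of which passed. CD74 209619_at had 38267 ± 7339 at 24 h and 30598 ± 3309 at 12 h in miR-28 cells (0.31 ± 0.13, limma adjusted p 0.23), and 36456 ± 3784 at 24 h and 28825 ± 4957 at 12 h in control cells (0.35 ± 0.13, limma adjusted p 0.14). CIITA 205101_at had 307 ± 91.3 at 24 h and 402.1 ± 76.3 at 12 h in miR-28 cells (-0.41 ± 0.16, limma adjusted p 0.21), and 310.5 ± 62.5 at 24 h and 382.8 ± 35.1 at 12 h in control cells (-0.31 ± 0.16, limma adjusted p 0.35). The values of CD74 were above 0 and those of CIITA below 0 in both genotypes, and none passed. HLA-DOA 226878_at had 1288 ± 156.5 at 24 h and 1265 ± 82.7 at 12 h in miR-28 cells (0.02 ± 0.10), and 957.5 ± 92.3 at 24 h and 1093 ± 144.1 at 12 h in control cells (-0.19 ± 0.10). Of HLA-DPA1, 211991_s_at had 13165 ± 528.7 at 24 h and 11299 ± 698 at 12 h in miR-28 cells (0.22 ± 0.08, limma adjusted p 0.13), and 11961 ± 1147 at 24 h and 10556 ± 857.9 at 12 h in control cells (0.18 ± 0.08, limma adjusted p 0.22).

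**Figure D3:**
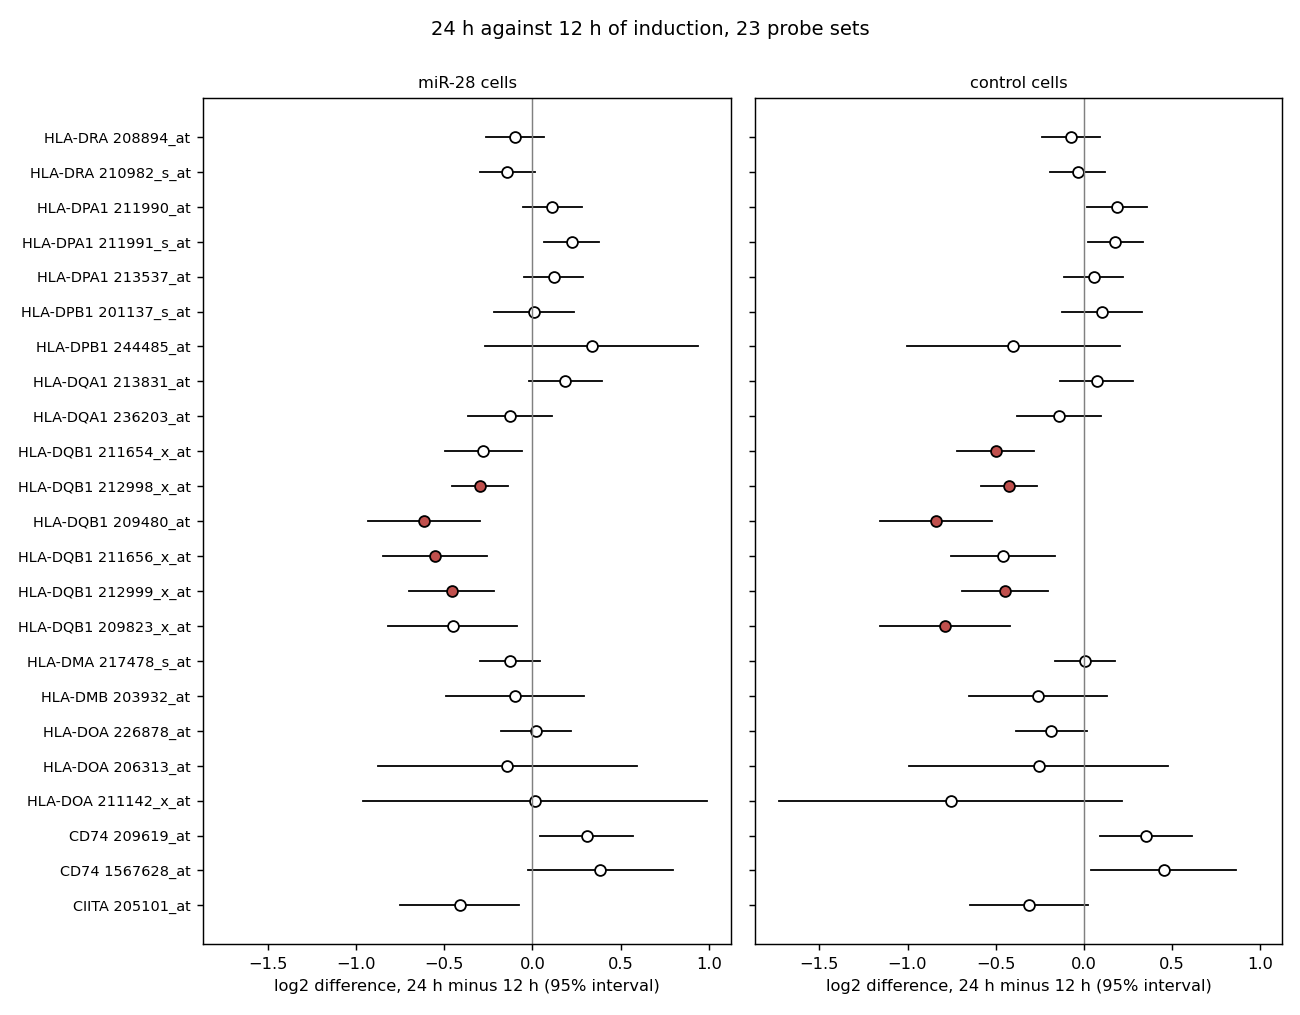
Log2 difference, 24 h minus 12 h, in miR-28 cells (left) and control cells (right) for the 23 probe sets, with 95% intervals from limma and red points where the adjusted p was under 0.05. All red points, 4 in miR-28 and 5 in control cells, are HLA-DQB1 probe sets and lie below 0.

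Other genes of class II presentation were taken from 5 lists. At 12 h none of their probe sets passed, at 0 of 6, 27, 31, 28 and 12 tested in the lists below, where 0.165% of all passed. At 24 h the endosomal proteins had 2 of 28 probe sets higher, both of CTSS, where 1.27% of all were called higher and 1.48% lower. The regulators of CIITA and of class II chromatin had 1 of 31 higher (NLRC5) and 1 lower (EZH2). The other class II genes (0 of 6), the promoter factors (0 of 27) and the genes of class II turnover with the partners of CD74 (0 of 12) had none. The median log2 difference at 24 h was 0.15 for the endosomal proteins, 0.06 for the regulators, 0.16 for the other class II genes, 0.14 for the promoter factors and 0.10 for the turnover list, against 0.012 over all probe sets.

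CTSS, the cathepsin that cuts CD74 in B cells, ran on 202902_s_at from 2505 to 3221 (median 2918) in miR-28 cells and from 1529 to 2326 (median 1823) in control cells at 24 h. All miR-28 arrays lay above all control arrays, as for 1.11% of all probe sets, and the log2 difference was 0.62 ± 0.12 (limma adjusted p 0.0036). The other called CTSS probe set, 232617_at, was likewise separated, from 1746 to 2303 in miR-28 and from 1098 to 1614 in control cells (0.51 ± 0.12, limma adjusted p 0.0175). The remaining CTSS probe set, 202901_x_at, was not among the calls. At 12 h CTSS 202902_s_at had 2792 ± 437.8 in miR-28 and 2683 ± 359.6 in control cells. In control cells it fell with time, to 1905 ± 305 at 24 h against 2683 ± 359.6 at 12 h (-0.50 ± 0.12, limma adjusted p 0.0231). It was the only 1 of 28 endosomal probe sets called lower there, where 1.5% of all were. The interaction of genotype with time for CTSS, 0.57 ± 0.17, did not pass (limma adjusted p 0.68).

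NLRC5, a relative of CIITA that activates class I genes, had 531.5 ± 92.0 in miR-28 and 339.5 ± 54.7 in control cells at 24 h (0.63 ± 0.13, limma adjusted p 0.0071). Its ranges, 389.5 to 623.9 in miR-28 and 275.4 to 418.9 in control cells, overlapped at their ends. EZH2, a histone methyltransferase of the Polycomb group, ran from 2267 to 2830 in miR-28 and from 3150 to 4057 in control cells at 24 h. The ranges did not overlap, as for 1.36% of all probe sets with miR-28 cells lower. The log2 difference of EZH2 was -0.39 ± 0.10 (limma adjusted p 0.0315). Its call was lost after median centring (-0.33, limma adjusted p 0.16) and without control B2 (-0.33, limma adjusted p 0.0679) or B3, or miR-28 A2, A3, B1, B2 or B3, at 24 h, where its adjusted p ran from 0.0554 to 0.0784. It was also lost with no filter on dim probe sets (limma adjusted p 0.132) and without both arrays of highest ACTB ratio (0.0552). The CTSS 232617_at call was lost without miR-28 B1 (limma adjusted p 0.0523) and with no filter (0.0752). With population means as the unit, or arrays of 1 letter alone, none of these 4 calls was kept. The calls of NLRC5 and CTSS 202902_s_at were kept in all 24 fits without 1 array.

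Of the promoter factors the smallest p at 24 h was that of RFX5, the large subunit of the RFX complex that binds the X box, with 4805 ± 285.7 on 202963_at in miR-28 and 4237 ± 349.6 in control cells (0.18 ± 0.07, limma adjusted p 0.18). A probe set of NFYC, a subunit of the Y box factor NF-Y, followed at -0.78 ± 0.35. At 12 h the smallest p values of this list were those of RFX5 202964_s_at (0.26 ± 0.10) and NFYA (-0.28 ± 0.13). With time RFX5 202963_at fell in control cells by 0.28 (limma adjusted p 0.0368). It was the only 1 of 27 promoter-factor probe sets called lower there, where 1.5% of all were.

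Of the other class II genes HLA-DOB, the beta chain of HLA-DO and partner of HLA-DOA, had 2256 ± 185.1 in miR-28 and 2002 ± 264.3 in control cells at 24 h (0.18 ± 0.12, limma adjusted p 0.51). HLA-DRB1, the main beta chain of HLA-DR, had 13694 ± 1291 in miR-28 and 14580 ± 1248 in control cells (-0.09 ± 0.08, limma adjusted p 0.64). At 12 h the smallest p values were those of HLA-DQB2 (-0.79 ± 0.34) and HLA-DOB (-0.11 ± 0.12). Of the turnover list the smallest p at 24 h were those of the tetraspanin genes CD37 (0.37 ± 0.11, limma adjusted p 0.0912) and CD63 (0.12 ± 0.07), and at 12 h those of CD63 (0.19 ± 0.07) and CD82 (-0.63 ± 0.41). At 12 h the smallest p of the endosomal list were those of LAMP2 (-0.72 ± 0.19) and CTSS 232617_at (0.27 ± 0.12), and of the regulators those of JAK2 (0.79 ± 0.32) and IFNGR1 (0.23 ± 0.10), none of which passed. CD83, which keeps class II on the surface by opposing its ubiquitin ligase, fell with time in both genotypes, to 987.6 ± 127.7 at 24 h against 1602 ± 311 at 12 h in miR-28 cells (limma adjusted p 0.0107) and to 939.5 ± 97.01 at 24 h against 1633 ± 288.2 at 12 h in control cells (limma adjusted p 0.0025). It was the only 1 of 12 turnover probe sets called lower in each genotype, where 0.901% of all were in miR-28 and 1.5% in control cells.

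**Figure D4:**
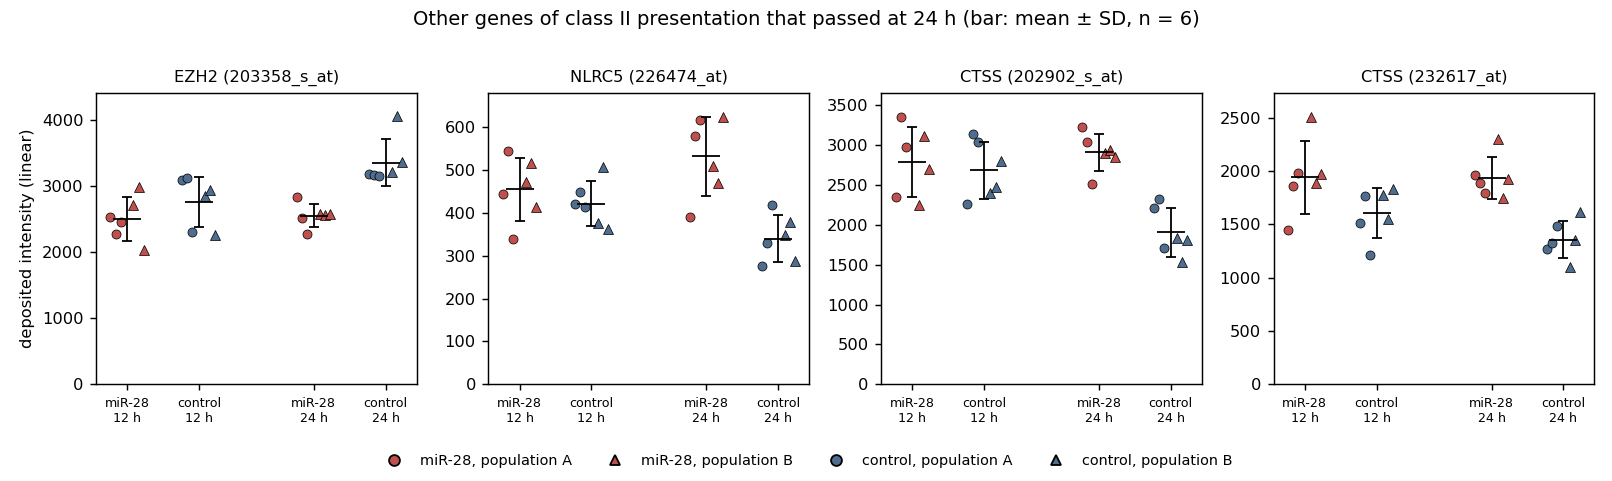
Deposited linear intensity on every array of the EZH2, NLRC5 and CTSS (202902_s_at and 232617_at) probe sets that passed at 24 h among other genes of class II presentation. Cells with miR-28 are in red left of control cells in blue at each time, with bars for the mean ± SD of 6 arrays. At 24 h CTSS 202902_s_at averaged 2907 in miR-28 and 1905 in control cells and EZH2 averaged 2552 in miR-28 and 3354 in control cells, each without overlap.

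How the members varied together from array to array was described after the mean of each of the 4 groups was subtracted. Over the 253 pairs of member probe sets the Pearson r of the log2 values across 24 arrays ran from -0.65 to 0.80, with a median of 0.093, and 161 pairs were above 0. The 25 pairs of probe sets of the same gene had a median of 0.21 and the 228 pairs of different genes 0.082. The highest values were 0.80 between both HLA-DRA probe sets, 0.74 between both CD74 probe sets, 0.70 between HLA-DPA1 211990_at and CD74 209619_at, and 0.69 between HLA-DQA1 213831_at and HLA-DQB1 212998_x_at. The lowest was -0.65, between HLA-DPA1 211990_at and HLA-DQB1 209480_at.

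On the same measure over 11370 other genes, the genes most like HLA-DRA 208894_at were SAR1A (r = 0.87), MRPL42 (0.86) and TXNDC17 (0.84). Those most like CD74 209619_at were PKM (0.91), PA2G4 (0.89) and TUFM (0.85), and those most like CIITA 205101_at were CLIC1P1 (0.69), KCNC2 (0.67) and FZR1 (0.65). All of these correlations are descriptions across the same 24 arrays, which share scaling and RNA quality, and were picked as the highest of many.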

How the data were processed

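Total RNA of P3HR1 cells was labelled as biotin cRNA from 6 ug and hybridised to 1-colour Affymetrix arrays, per the labels' protocols. The authors deposited linear intensities of probe sets, made with MAS5, per the submitters' processing notes, and the values show a common 2% trimmed mean of 500.07 to 500.08 on every array. Settings of MAS5 are not given in the sources used here. Each array is 1 column of the deposited value table, and 0 columns were left unmapped.

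Here log2(intensity + 8) was tested per probe set in R 4.3.3 (limma 3.58.1, statmod 1.5.0), after 62 control probe sets and those with a mean log2 value of 6.108 or lower (the median) were left out, which kept 27306. The pseudocount shrinks differences of dim probe sets. All 4 group means were fitted together with the population as a random block (consensus correlation -0.025). With a value below 0 the block slightly narrowed the errors between genotypes and widened those with time. For HLA-DRA 208894_at the SE was 0.076 between genotypes and 0.079 with time. Comparisons between populations used means of each population and time. P-values are two-sided and Benjamini-Hochberg adjusted over all 27306, called at 0.05, and errors are SD of intensities and SE of log2 differences. The number of arrays limits the precision, with a median SE of 0.17 at 24 h. The fit was also run on simulated data with independent noise on each array. These hold no population effect, so they cannot check how the fit handles the populations.

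Named were all probe sets of the 10 genes, pathway genes called at 12 h or 24 h plus the 2 smallest p of each list at each time, and the 3 genes most like HLA-DRA, CD74 and CIITA. Pathway genes called only with time were added after their values were seen. No call of a pathway gene with time was followed through the alternative settings. Members, lists and comparisons were chosen with earlier results of these data known. Symbols came from the platform annotation, updated by gene number: 41091 probe sets had 1 symbol (54 not matched to RefSeq), 1801 several and 11721 none. Alternatives were other pseudocounts (1, 32), filters (none, 8), scalings (median centring, quantile), variance priors, blocks, units and subsets of arrays.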

Additional observations from a re-analysis of the deposited data

Results flagged for a closer look

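In 92 sets of 6 arrays (1 probe set in 1 group) the most extreme array was compared with the other 5, and in 5 sets its gap to the nearest, as a share of the whole range, exceeded Dixon's 95% critical value, which chance passes in about 1 in 20. HLA-DPA1 211990_at had 27257 on miR-28 array B1 at 12 h, while the others ran from 30409 to 32310. HLA-DMA 217478_s_at had 4145 on miR-28 array A3 at 24 h, below the 4593 to 4844 of the others. HLA-DMB 203932_at had 9466 on control array A1 at 24 h, above the 5264 to 6337 of the others. CD74 1567628_at had 1857 on control array B2 at 24 h, which had the highest ACTB ratio, below the 2824 to 3234 of the others. CIITA 205101_at had 550.6 on miR-28 array A3 at 12 h, above the 346.6 to 408.6 of the others. Each array stood apart for 1 of these probe sets, and none of these probe sets was called in any comparison.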

How the results depend on the processing

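The count of members called at 24 h, 3 as reported, was 0 with no filter on dim probe sets, 0 with population means as the unit, 0 with population A arrays only, 0 with population B arrays only, 1 with arrays of the compared groups only, 1 with both arrays of highest ACTB ratio left out, and 1 to 3 without 1 array. For 24 h minus 12 h in control cells, 5 as reported, it was 2 with no filter, 1 with 1 probe set per gene, 1 with the compared groups only, 0 with population means and 0 with population A or B only, and 4 to 5 without 1 array. For 24 h minus 12 h in miR-28 cells, 4 as reported, it was 0 with no filter, median centring, 1 probe set per gene, population means, population A or B only or the compared groups only, 1 with both ACTB arrays left out, 1 with the replicate block, and 0 to 4 without 1 array. The counts at 12 h, for the interaction and between populations were 0 in all fits run. With 1 probe set per gene only 1 HLA-DQB1 probe set is tested, and with arrays of 1 letter or with population means fewer values enter. The cause of the other changes was not tested. Deviations of same-numbered arrays correlated weakly at most (r of -0.11 to 0.063 over 24 pairs), and whether they share more than a number was not tested. The replicate block left 3 calls among members at 24 h, and moved all calls at 24 h to 1043 from 751 and at 12 h to 87 from 45. With no filter all calls were 117 higher and 185 lower at 24 h, 50 and 47 with time in miR-28 cells, and 149 and 100 with time in control cells. Median centring moved every log2 difference by 1 constant per comparison, -0.026 at 12 h, 0.055 at 24 h, 0.097 with time in miR-28 cells and 0.015 with time in control cells.

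Of 2951 alternative values for 77 probe set results, 2690 kept direction and side of the threshold, 203 lost a call, 3 gained one and 55 turned sign, none of them among the 17 called results. The adjusted p of HLA-DOA 226878_at at 24 h ran from 0.0055 to 0.41, of HLA-DQB1 212998_x_at from 0.0084 to 0.44 and of HLA-DQA1 213831_at from 0.016 to 0.46. These log2 differences turned sign. With median centring they were -0.0010 for HLA-DQB1 209480_at and -0.0054 for HLA-DOA 211142_x_at at 12 h, and 0.0063 for HLA-DMA and 0.012 for CIITA at 24 h. Quantile normalization gave -0.0054 and a pseudocount of 32 gave -0.045 for HLA-DOA 211142_x_at at 12 h. Without both ACTB arrays they were -0.0038 for HLA-DQB1 209480_at, 0.020 for HLA-DMB and -0.044 for HLA-DOA 211142_x_at at 12 h, and -0.025 for HLA-DRA 210982_s_at at 24 h. With population A only they were -0.68 for HLA-DOA 211142_x_at at 12 h, -0.0068 for HLA-DRA 210982_s_at, 0.040 for HLA-DMA, -0.076 for HLA-DOA 211142_x_at and -0.12 for CD74 1567628_at at 24 h, and -0.029 for CD74 1567628_at with time in miR-28 cells. With population B only they were -0.020 for HLA-DQB1 211654_x_at, -0.13 for 209480_at, -0.11 for 209823_x_at, -0.050 for HLA-DMA, 0.042 for HLA-DMB, -0.15 for HLA-DOA 206313_at, -0.072 for CD74 1567628_at and -0.072 for CIITA at 12 h, and -0.018 for HLA-DQA1 236203_at and 0.055 for CIITA at 24 h. Without 1 array, values at 12 h ran from -0.10 to 0.13 for HLA-DQB1 209480_at, -0.15 to 0.070 for HLA-DMB, -0.27 to 0.39 for HLA-DOA 211142_x_at and -0.038 to 0.097 for CIITA. At 24 h they ran from -0.025 to 0.034 for HLA-DRA 210982_s_at, -0.015 to 0.063 for HLA-DPA1 211990_at, -0.0026 to 0.25 for HLA-DMB, -0.0073 to 0.51 for HLA-DOA 206313_at, -0.023 to 0.12 for CD74 209619_at and -0.16 to 0.064 for CIITA.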
